A study of Mus musculus with 24 samples.

Results

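Leukocyte integrins are described here as 6 genes measured in mouse brain microvessels after experimental stroke: Itgb2, Itgal, Itgam, Itgax, Itga4 and Itgb7. They were taken by their symbols from the 17270 genes of the table of normalized counts, in which each is found once. They were chosen by their normalized counts, high in ipsilateral stroke vessels for most of them, which were known at that time. All 6 passed the filter of a mean above 5 normalized counts, as did 15982 genes in all. Male C57BL/6J mice of 10 to 12 weeks underwent either transient occlusion of the right middle cerebral artery (tMCAO) for 60 min, or sham surgery in which the filament was withdrawn as soon as it had reached the artery. No mouse carried an engineered allele, and all were perfused through the heart with buffer before the microvessels were collected on a mesh. The 24 libraries fall into 8 groups of 3: the ipsilateral (operated) and the contralateral hemisphere, at 24 h and at 7 days, after tMCAO and after sham surgery. Each library holds the vessels of 3 hemispheres pooled, of the whole hemisphere, so that infarcted and intact tissue are mixed. The separate libraries are pools of different mice within a group, but the study left out outlying samples before deposit, so the spread shown here is that of the samples it retained.

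Integrins are cell surface receptors made of an alpha and a beta chain. The beta 2 chain, encoded by Itgb2 (CD18), is carried by leukocytes and joins with alpha L (Itgal, giving LFA-1), alpha M (Itgam, giving Mac-1 or complement receptor 3) or alpha X (Itgax, CD11c). LFA-1 and Mac-1 bind ICAMs on activated endothelium and hold a rolling leukocyte still on the vessel wall. The alpha 4 chain (Itga4) pairs with beta 1 as VLA-4, a receptor for VCAM-1 and fibronectin, or with beta 7 (Itgb7) as a receptor for MAdCAM-1. Itgam is found on neutrophils, monocytes and microglia, Itgax on dendritic cells and activated macrophages, and Itgal on most leukocytes.

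The genes of 3 alpha chains lie on chromosome 7. In mm10 coordinates Itgal spans chr7:127296260-127335138, Itgam chr7:128062640-128118491 and Itgax chr7:128129547-128150657, all on the plus strand. The end of Itgam is 11.1 kb from the start of Itgax. Itgb2 lies at chr10:77530252-77565686 (plus strand), Itga4 at chr2:79255500-79333123 (plus strand) and Itgb7 at chr15:102215995-102231935 (minus strand). The 250 bases before the start of Itgam and of Itgax are printed because these neighbours on the same strand had different time courses after stroke. Capitals mark GAGGAA or its reverse complement TTCCTC, the purine-rich core bound by PU.1, a transcription factor of myeloid cells. The sequences are from RefSeq on GRCm38.p6, at chr7:128062390-128062639 for Itgam and chr7:128129300-128129549 for Itgax, and end at the RefSeq start, which for Itgax lies 3 bases inside the GENCODE gene given above.
Itgam: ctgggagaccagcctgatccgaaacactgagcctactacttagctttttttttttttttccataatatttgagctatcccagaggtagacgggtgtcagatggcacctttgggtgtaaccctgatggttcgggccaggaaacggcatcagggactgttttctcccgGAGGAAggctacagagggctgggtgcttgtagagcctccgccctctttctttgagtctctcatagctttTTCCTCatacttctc
Itgax: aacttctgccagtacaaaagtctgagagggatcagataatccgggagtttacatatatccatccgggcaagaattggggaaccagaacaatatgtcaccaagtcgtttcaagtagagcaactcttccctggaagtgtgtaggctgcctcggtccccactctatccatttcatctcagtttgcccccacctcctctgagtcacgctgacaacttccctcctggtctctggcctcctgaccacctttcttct
Itgam held 2 matches, 84 bases before the start on the plus strand and 15 bases before it on the minus strand, and Itgax held none in this window. Of the 4 leukocyte integrin genes that have an entry in the promoter table (also Itga4 and Itgb7) only Itgam had a match, and 23.3% of all 32851 promoters of the table hold the motif on either strand within 250 bases. A match is a description of letters and was not tested as a site of binding.

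Library totals were similar, between 15924780 and 18787932 normalized counts, with 16885 to 17099 genes above 0 in a library. Microvessel identity was visible in Cldn5, the claudin of the blood-brain barrier, at 42176 to 73846 normalized counts in the ipsilateral libraries of both surgeries. In the same libraries, Ly6g of neutrophils ranged from 0 to 21 and Cd3e of T cells from 1 to 13. Summed over their lists, neutrophil markers were higher, at 2996 to 6608 in ipsilateral stroke and 244 to 1225 in sham ipsilateral libraries at 24 h. T cell markers summed to 194 to 201 and 82 to 135 there.

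The beta 2 chain was low in every control library and high in every ipsilateral stroke library. Itgb2 measured 111, 206 and 183 normalized counts in sham ipsilateral libraries at 24 h, and 966, 604 and 755 after tMCAO. At 7 days it measured 196, 155 and 240 after sham surgery and 588, 699 and 421 after tMCAO. Contralateral libraries held 115, 129 and 109 (sham) and 165, 170 and 133 (tMCAO) at 24 h, and 116, 119 and 166 (sham) and 133, 112 and 120 (tMCAO) at 7 days. The highest of the 18 control libraries (both sham hemispheres and the contralateral tMCAO hemisphere) was thus at 240. The lowest ipsilateral stroke library was at 421, with no overlap. Every ipsilateral stroke library lay above every sham ipsilateral one in 25.0% of all genes at 24 h and 13.4% at 7 days. These shares also stand beside the separations of the other integrins described below. On the log2 scale after addition of 1, the difference between tMCAO and sham ipsilateral was 2.23 ± 0.23 (standard error, SE) at 24 h and 1.52 ± 0.23 at 7 days, and n = 3 libraries per group in these and all later comparisons. In RNA from whole microvessel isolates, more leukocytes and more Itgb2 mRNA per leukocyte cannot be told apart.

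Itgal, the alpha chain of LFA-1, had overlapping ranges at both times after tMCAO in the ipsilateral hemisphere. Its values in the ipsilateral stroke libraries were 426, 214 and 307 at 24 h and 299, 485 and 210 at 7 days. The sham ipsilateral libraries were at 23, 75 and 40 at 24 h and at 72, 102 and 158 at 7 days, all below the stroke libraries. Contralateral values ran from 22 to 59 (sham) and 39 to 51 (tMCAO) at 24 h, and from 38 to 91 (sham) and 35 to 83 (tMCAO) at 7 days. Itgal varied more between libraries of 1 group than the other leukocyte integrins did in sham vessels at 24 h, with a coefficient of variation of 60.8% in the contralateral and 57.6% in the ipsilateral hemisphere. The log2 difference between tMCAO and sham ipsilateral was 2.85 ± 0.46 (SE) at 24 h and 1.56 ± 0.46 at 7 days, and the lower value at 7 days came with a higher sham level (110.7 ± 43.7, SD, against 46.0 ± 26.5 at 24 h) rather than a lower stroke level.

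Itgam, the alpha chain of Mac-1, had its peak at 24 h. It measured 252, 195 and 231 in the ipsilateral stroke libraries at 24 h but 101, 93 and 49 at 7 days. This leaves a gap between the time points, as in the same direction for 19.9% of all genes. Sham ipsilateral libraries held 23, 36 and 45 at 24 h and 38, 34 and 41 at 7 days. Contralateral tMCAO libraries were at 49, 50 and 30 at 24 h and at 31, 29 and 25 at 7 days, and contralateral sham libraries between 26 and 32. The lowest 7 day stroke library (49) lay within the range of the 18 control libraries (23 to 50). The log2 difference between tMCAO and sham ipsilateral was 2.71 ± 0.26 (SE) at 24 h and 1.02 ± 0.26 at 7 days.

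Itgax, the alpha chain known as CD11c, was the least abundant leukocyte integrin in control libraries (4.09 ± 1.28 normalized counts per kb of exon, SD over 18 libraries) and had overlapping ranges at 24 h and 7 days in the ipsilateral stroke hemisphere. It measured 92, 57 and 88 there at 24 h and 98, 94 and 68 at 7 days. Sham ipsilateral libraries held 21, 23 and 21 at 24 h and 28, 17 and 32 at 7 days, with no overlap with the stroke libraries. Contralateral tMCAO libraries held 14, 24 and 23 at 24 h and 6, 15 and 11 at 7 days, and contralateral sham libraries 17 to 24. The log2 difference between tMCAO and sham ipsilateral was 1.79 ± 0.31 (SE) at 24 h and 1.75 ± 0.31 at 7 days. Against the contralateral hemisphere of the same surgery it was 1.91 ± 0.31 at 24 h and 2.97 ± 0.31 at 7 days, where the contralateral level itself was the lowest of the 8 groups (10.7 ± 4.51, SD).

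Itga4 did not follow the other leukocyte integrins. It measured 670, 427 and 693 in ipsilateral stroke libraries at 24 h against 412, 527 and 440 in sham, and 391, 484 and 317 against 374, 446 and 295 at 7 days. The stroke and sham libraries overlapped at both times. Contralateral values were 415, 489 and 357 (sham) and 421, 360 and 492 (tMCAO) at 24 h, and 361, 342 and 283 (sham) and 289, 352 and 312 (tMCAO) at 7 days. The log2 difference between tMCAO and sham ipsilateral was 0.35 ± 0.20 (SE) at 24 h and 0.10 ± 0.20 at 7 days. Against the contralateral tMCAO hemisphere it was 0.47 ± 0.20 at 24 h and 0.31 ± 0.20 at 7 days, with overlap of the libraries at both times. In control libraries Itga4 was already present at 27.7 ± 5.21 normalized counts per kb of exon (SD over 18 libraries). On this scale it was second among the 6 genes to Itgb2 (48.7 ± 12.6 per kb). Before division by length Itga4 was the higher, at a mean of 387 against 149 normalized counts. The order thus depends on the exon length used.

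Itgb7, a partner of alpha 4, differed from it. It measured 168, 108 and 129 in ipsilateral stroke libraries at 24 h against 28, 46 and 34 in sham, and 93, 103 and 68 against 39, 51 and 65 at 7 days. The groups were separate at both times, at 7 days by only 3 normalized counts. Such a separation upward was found for 25.0% of all genes at 24 h and 13.4% at 7 days. Contralateral libraries held 34 to 40 (sham) and 30 to 31 (tMCAO) at 24 h, and 26 to 45 (sham) and 19 to 31 (tMCAO) at 7 days. The log2 difference between tMCAO and sham ipsilateral was 1.88 ± 0.26 (SE) at 24 h and 0.77 ± 0.26 at 7 days, and the call at 7 days was lost with a block for the replicate numbers or pools.

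In the order of group means, the ipsilateral stroke groups came first for Itgb2, Itgal, Itgam, Itgax and Itgb7. For Itgb2 and Itgal these groups overlapped with each other and were apart from the third, and the remaining groups each overlapped with the next. For Itgam a gap separated 24 h from 7 days of ipsilateral stroke, and from there every group overlapped with the next. For Itgax both stroke groups overlapped, were apart from the third, and the contralateral tMCAO group of 7 days was apart at the bottom. For Itgb7 each ipsilateral stroke group was apart from the next. The 7 day stroke libraries lay below those of 24 h without overlap in 19.9% of all genes. For Itga4 all neighbours overlapped, and the 4 groups of 24 h ranked above the 4 groups of 7 days.

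**Figure D1:**
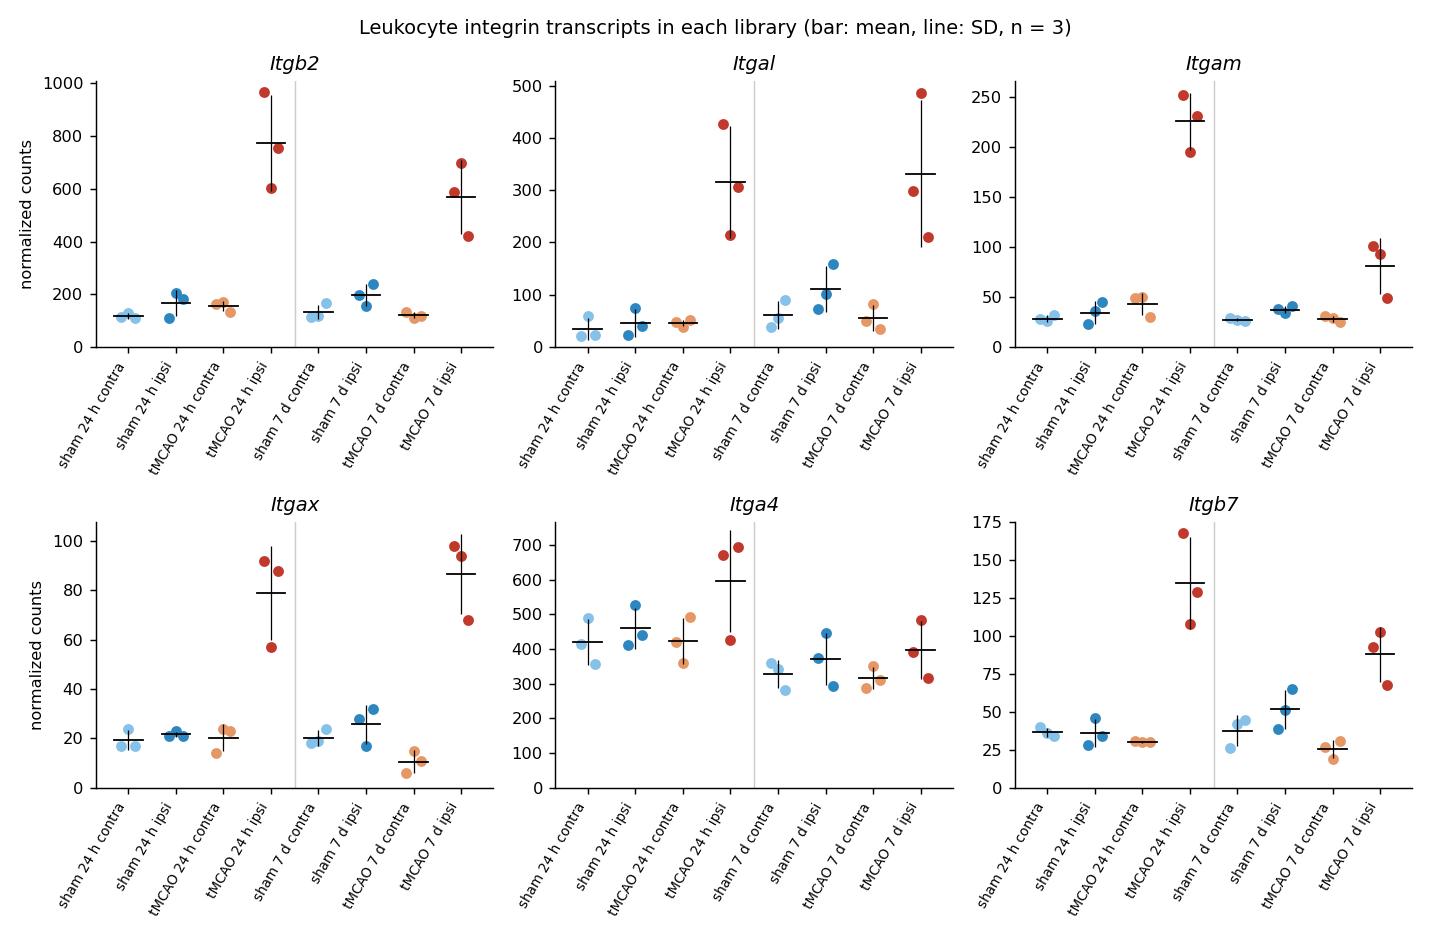
Normalized counts (vertical axis, linear and starting at 0) of each leukocyte integrin gene in the 24 libraries, 3 per group, with the mean (bar) and SD (line) of each group, and 24 h groups left of the grey line. For Itgb2, Itgal, Itgax and Itgb7 the ipsilateral tMCAO libraries (dark red) lie above all 18 others, whereas Itga4 overlaps in range with them.

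With the thresholds of the study (adjusted p under 0.05 and a change of more than 1.5-fold), 5 of 6 leukocyte integrins were called higher in ipsilateral stroke than in sham vessels at 24 h, where 10.0% of all genes tested were called higher. At 7 days the same count was 5 of 6, where 3.27% of all genes were called higher, and Itga4 was the gene not called at both times. Within the tMCAO surgery, 5 of 6 were higher in the ipsilateral than in the contralateral hemisphere at 24 h (8.52% of all genes) and at 7 days (3.03%). The genes were chosen with these values known, so the counts describe them and are no test. The median log2 difference between tMCAO and sham ipsilateral over the 6 genes was 2.06 at 24 h and 1.27 at 7 days, against -0.02 and 0.02 over all genes. The count at 7 days depended on single libraries: it was 2 without ipsilateral stroke replicate 1, and 3 without ipsilateral stroke replicate 2, sham replicate 1 or sham replicate 2. It was 4 with a block for the replicate numbers or for the pools, where Itgb7 was not called, and 3 when only the compared groups were fitted, where Itgam was not called either. Within the tMCAO surgery, all 6 were called at 24 h without ipsilateral stroke replicate 2. Both comparisons with ipsilateral stroke share its libraries, and their values are therefore given side by side.

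**Figure D2:**
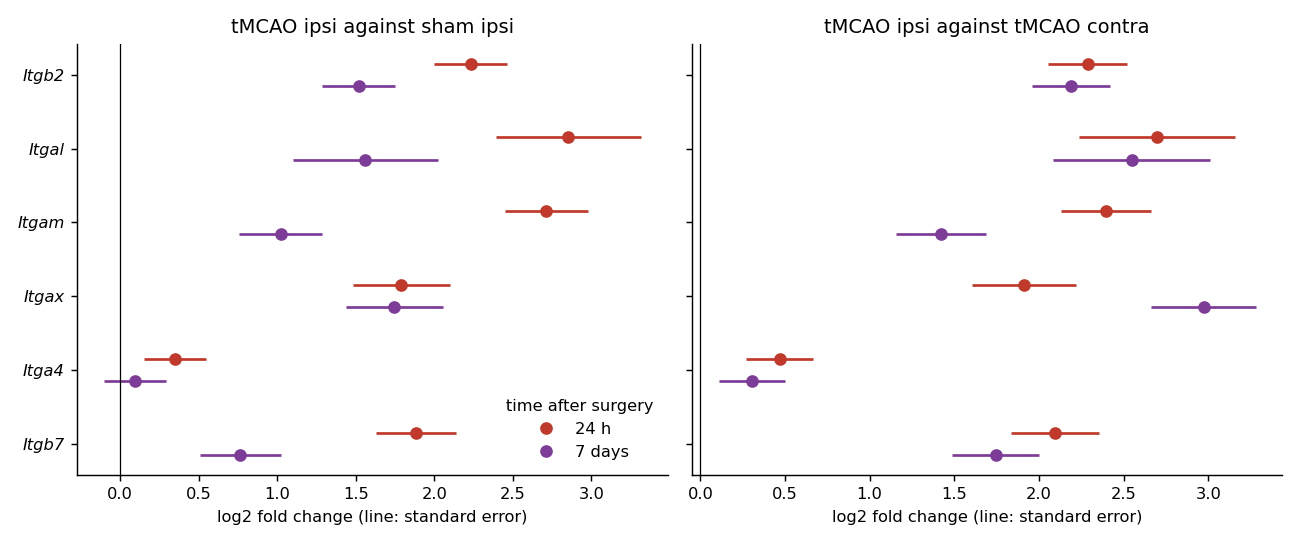
Log2 fold change (horizontal axis, SE as lines) of the 6 leukocyte integrin genes in ipsilateral tMCAO vessels at 24 h (red) and 7 days (purple), against sham ipsilateral vessels on the left and against contralateral tMCAO vessels on the right. Itgam lies at 2.71 at 24 h and 1.02 at 7 days against sham, Itgax at 1.79 and 1.75, and Itga4 at 0.35 and 0.10, with 0.47 and 0.31 against the contralateral hemisphere.

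Between 24 h and 7 days, the ipsilateral stroke levels of the chains changed to different extents. The log2 difference of 7 days minus 24 h was -1.53 ± 0.26 (SE) for Itgam, -0.61 ± 0.26 for Itgb7, -0.57 ± 0.20 for Itga4 and -0.45 ± 0.23 for Itgb2. For Itgal it was 0.04 ± 0.46 and for Itgax 0.14 ± 0.31. Itgam was the only 1 of 6 called lower, beside 8.44% of all genes. After subtraction of the sham difference over the same time, the values were -1.69 ± 0.37 for Itgam, -1.29 ± 0.65 for Itgal, -1.12 ± 0.36 for Itgb7, -0.71 ± 0.33 for Itgb2, -0.26 ± 0.28 for Itga4 and -0.04 ± 0.43 for Itgax, and again 1 of 6 was called lower (Itgam, beside 5.68% of all genes). Itga4 passed the thresholds of the time comparison as well when ipsilateral stroke replicate 2 of 24 h or of 7 days was left out (2 of 6 genes), and Itgb7 those of the subtracted comparison without sham ipsilateral replicate 2 of 24 h or replicate 1 of 7 days (also 2 of 6).

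The mix of alpha chains was followed as shares of the sum of Itgal, Itgam and Itgax in normalized counts per kb of exon. In the ipsilateral stroke hemisphere at 24 h, Itgal made up 43.2% ± 4.7 (SD, n = 3), Itgam 41.8% ± 4.6 and Itgax 15% ± 1.3 of the sum. At 7 days Itgal made up 58.7% ± 6.7, Itgam 19.1% ± 3.7 and Itgax 22.2% ± 4.1. The Itgam share thus ranged from 37.4% to 46.6% at 24 h and from 16.5% to 23.4% at 7 days. Sham ipsilateral vessels had an Itgam share of 37.9% ± 7.8 at 24 h and 26.1% ± 5.0 at 7 days and an Itgal share of 36.1% ± 11 and 55.7% ± 9.3. The sham ranges of both times overlapped for each chain, with an Itgax share of 20.5% to 35.1% at 24 h and 13.7% to 23.9% at 7 days, against 14.3% to 16.5% and 17.5% to 25.3% after tMCAO. These shares were not tested. The sum of the 3 alpha chains over Itgb2, per kb, was 0.431 ± 0.015 in ipsilateral stroke vessels at 24 h and 0.447 ± 0.042 at 7 days, and 0.337 to 0.461 as means of the other 6 groups. Itga4 over Itgb7 was 0.879 ± 0.16 at 24 h and 0.896 ± 0.055 at 7 days in ipsilateral stroke vessels, and 1.51 to 2.77 as means of the other groups. The level of this ratio, unlike its change between groups, depends on the exon lengths used. Itgb1, the other partner of alpha 4 and an integrin of nearly all cells, exceeded Itga4 by 128 to 186 times per kb as group means, so of the VLA-4 chains alpha 4 had the scarcer transcript in every group.

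**Figure D3:**
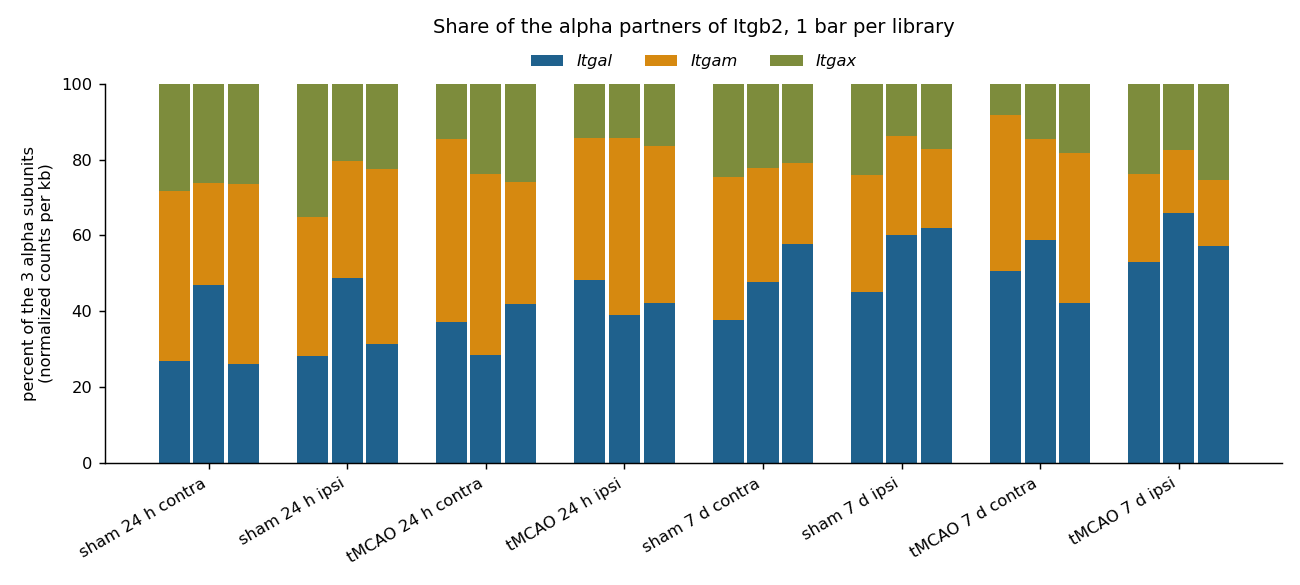
Share (percent, vertical axis) of Itgal, Itgam and Itgax in their summed normalized counts per kb, 1 bar per library and 3 bars per group. The Itgam share is 37.4% to 46.6% in the ipsilateral stroke libraries at 24 h and 16.5% to 23.4% at 7 days.

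Comparisons that hold no ipsilateral stroke library were tested with limma. The genes were chosen with earlier results of these data known, so these tests are not fully independent of the choice. None of the 6 was called in any of them. In the sham hemispheres, ipsilateral against contralateral, 0 of 6 were called at 24 h (0% of all genes) and 0 of 6 at 7 days (0%), and at an unadjusted p under 0.05 there were 0 (2.30% of all genes) and 1 (Itgb2, 2.25%). The ipsilateral library was the higher of the pair in 6 of 6 sham pools for Itgal and in 5 of 6 for Itgb2, Itgam and Itga4. For Itgax and Itgb7 it was the higher in 4 of 6. The share of all genes with such pair counts was not computed. No label gives the pairing, which was inferred from the values. Averaged over both times, a contrast added after the data were seen, Itgb2 differed by 0.50 ± 0.16 (SE, log2, limma adjusted p = 0.831) and Itgal by 0.62 ± 0.33 (limma adjusted p = 0.831). In that contrast 0 of 6 were called (0%) and 1 of 6, Itgb2, had an unadjusted p under 0.05 (5.79% of all genes). The Itgal pairs ran from 23 ipsilateral and 22 contralateral counts (a 24 h pool) to 72 and 38 (a 7 day pool).

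In the contralateral hemisphere, tMCAO against sham gave 0 of 6 calls at 24 h (0% of all genes) and 0 of 6 at 7 days (0.0313%). At 24 h 0 of 6 and at 7 days 1 of 6 had an unadjusted p under 0.05, beside 2.53% and 10.3% of all genes. The gene at 7 days was Itgax, at 10.7 ± 4.51 normalized counts (SD, n = 3) after tMCAO and 20.3 ± 3.21 after sham surgery, a log2 difference of -0.94 ± 0.31 (SE, limma adjusted p = 0.352) with every tMCAO library below every sham library, as in 4.76% of all genes. Such low values rest on few reads. Itgb2 at 24 h was at 156.0 ± 20.1 after tMCAO and 117.7 ± 10.3 after sham surgery, a log2 difference of 0.40 ± 0.23 (SE, limma adjusted p = 1), without overlap of the libraries, as was the case upward for 3.96% of all genes. Itgb7 at 24 h did not overlap either, at 30 to 31 after tMCAO and 34 to 40 after sham surgery (log2 difference -0.26 ± 0.26, SE, limma adjusted p = 1), as was the case downward for 4.24% of all genes.

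Between 24 h and 7 days, 0 of 6 were called in sham ipsilateral (0.476% of all genes), sham contralateral (0.332%) or tMCAO contralateral vessels (0%). The largest difference was in Itgal of sham ipsilateral vessels, 1.33 ± 0.46 (SE, log2, limma adjusted p = 0.188), with 1 of 6 genes at an unadjusted p under 0.05 (14.1% of all genes). Sham contralateral Itgal differed by 0.88 ± 0.46 (limma adjusted p = 0.504), with 0 of 6 at an unadjusted p under 0.05 (10.8%). In tMCAO contralateral vessels Itgax differed by -0.91 ± 0.31 (limma adjusted p = 0.161) and 2 of 6 genes (also Itgam) had an unadjusted p under 0.05 (16.5%). A p above the threshold does not show that the levels were alike.

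The other integrin chains gave the family context. Of 20 listed, 17 were in the table and tested. At 24 h 4 were called higher in ipsilateral stroke than in sham vessels, where 10.0% of all genes were called higher. These were Itga2 (2.54 ± 0.46, log2, SE), Itga2b (1.62 ± 0.41), Itga5 (1.49 ± 0.15) and Itgb3 (1.20 ± 0.20). Itga2b and Itgb3 form the fibrinogen receptor of platelets, Itga2 with beta 1 is a collagen receptor, and Itga5 with beta 1 is the fibronectin receptor of vessel and other cells. Itgb8, which with alpha V activates TGF-beta, was lower (-1.01 ± 0.31), as were 8.23% of all genes. At 7 days 2 of 17 were called higher, Itga5 (0.77 ± 0.15) and Itgb3 (0.66 ± 0.20), where 3.27% of all genes were called higher. Itgb8 was lower (-1.12 ± 0.31), as were 9.95% of all genes. Not called at either time were Itga1, Itga3, Itga6, Itga7, Itga8, Itga9, Itga10, Itga11, Itgav, Itgb1, Itgb4 and Itgb5, and Itga2 and Itga2b were not called at 7 days (1.14 ± 0.46 and 1.04 ± 0.41). The median of the 17 was -0.19 at 24 h and 0.04 at 7 days. The count of lower genes at 24 h went from 1 to 0 without sham replicate 3 or stroke replicate 1, to 2 without sham replicate 1 and to 4 without stroke replicate 3. At 7 days the higher count was 1 without sham replicate 2 or stroke replicate 1 and the lower count 0 without sham replicate 3.

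Of the ligands of leukocyte integrins, 13 of 17 listed were in the table and 12 passed the filter. At 24 h 3 of 12 were higher in ipsilateral stroke than in sham vessels, where 10.0% of all genes were called higher. These were the complement gene C3, whose fragment iC3b is bound by Mac-1 (2.64 ± 0.47, log2, SE), Icam1 (1.18 ± 0.17) and Icam2 (0.73 ± 0.15). Icam1, the inducible endothelial ligand of LFA-1 and Mac-1, measured 1512 to 2199 normalized counts in sham and 3661 to 5027 in stroke libraries. At 7 days 2 of 12 were called higher, where 3.27% of all genes were called higher. They were again Icam1 (1.38 ± 0.17, 1095 to 1788 in sham against 3345 to 4118 in stroke libraries) and also Fn1, the fibronectin gene (0.65 ± 0.18). Icam1 was higher in the contralateral hemisphere too at 7 days, at 2495 to 2726 after tMCAO and 1087 to 1199 after sham surgery. The log2 difference was 1.20 ± 0.17 (SE, limma adjusted p = 0.00761), and 0.0250% of all genes were called higher there. The ligands were listed with earlier results of these data known, so this p is no independent test. Icam5, an ICAM of neurons, was lower at 24 h (-1.18 ± 0.32) and at 7 days (-2.13 ± 0.32), as were 8.23% and 9.95% of all genes. The summed neuron markers were lower too, at 1691 to 2414 against 4724 to 4880 normalized counts at 24 h and 473 to 841 against 3655 to 6636 at 7 days. Vcam1, the ligand of VLA-4, was at 6950 to 9718 in stroke and 7321 to 9129 in sham libraries at 24 h, and at 9245 to 12576 and 7671 to 9378 at 7 days, with log2 differences of -0.00 ± 0.16 and 0.39 ± 0.16 that were not called. F11r (0.39 ± 0.11 and 0.38 ± 0.11), Jam2, Jam3, Spp1, Thy1 and Cdh1 were not called at either time, Fgb did not pass the filter, and the 7 day count of higher ligands was 1 without sham replicate 2 or stroke replicate 1.

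**Figure D4:**
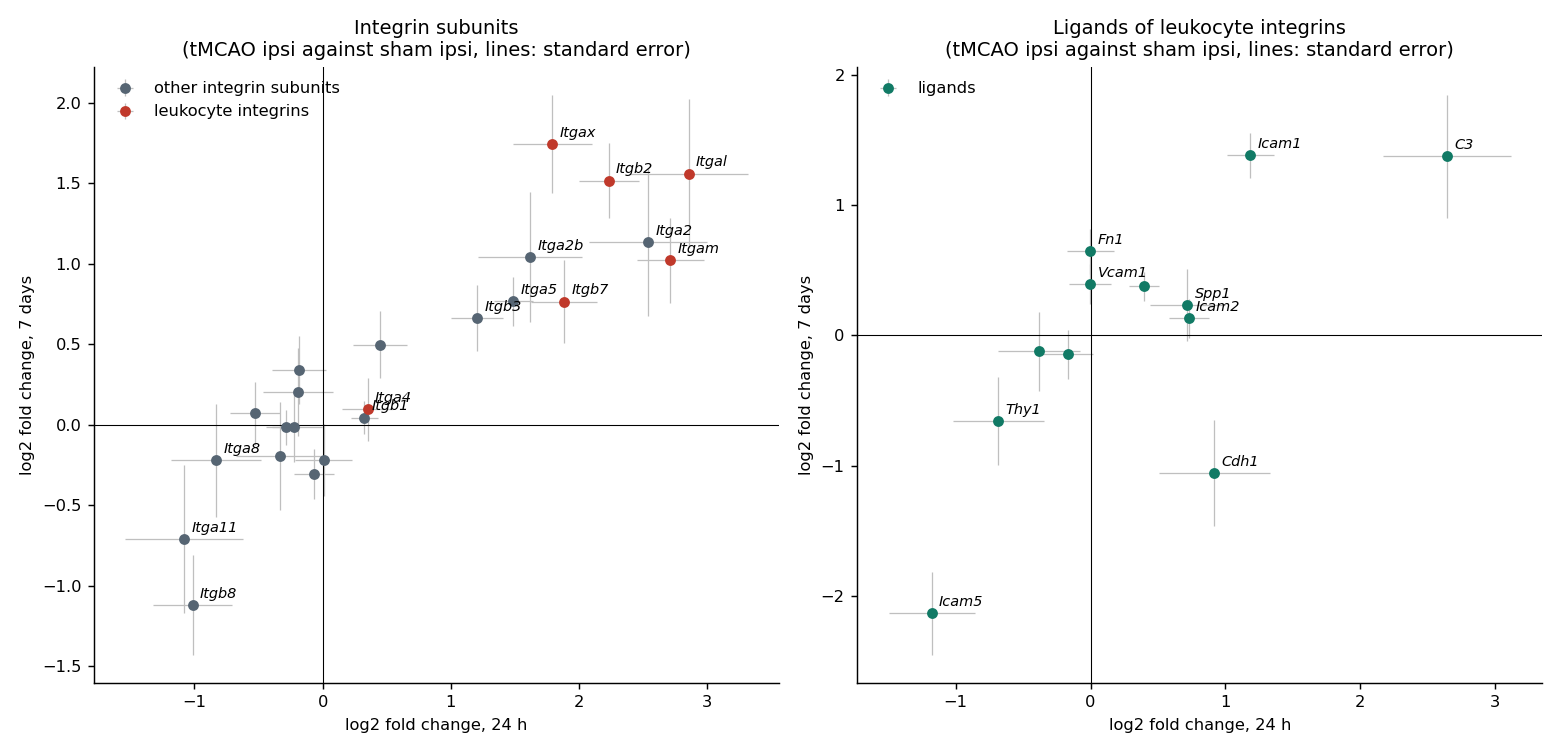
Log2 fold change of ipsilateral tMCAO against sham vessels at 24 h (horizontal axis) and 7 days (vertical axis), with SE as lines, for integrin subunits (left, leukocyte integrins in red and 17 others in grey) and for 12 ligands (right). Itga2, Itga5, Itga2b and Itgb3 are the other integrins in the upper right, and among ligands Icam1 is high at both times.

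Genes that switch leukocyte integrins on, and those that signal from them, were counted next, beside 10.0% of all genes higher and 8.23% lower at 24 h and 3.27% higher and 9.95% lower at 7 days. Of 15 tested activators and adaptors, 7 were higher and 1 lower at 24 h and 5 higher at 7 days. The largest increase at 24 h was that of Rac2 (1.95 ± 0.30, log2, SE), the Rac GTPase of blood cells, and at 7 days that of Apbb1ip (1.22 ± 0.24), which encodes RIAM and links Rap1 to talin. Rasgrp2, an activator of Rap1, was lower at 24 h (-0.71 ± 0.17). Of 9 tested signalling genes, 7 were higher at 24 h, led by the Src family kinase gene Fgr (2.85 ± 0.53), and 3 at 7 days, led by the adaptor gene Lcp2 (1.04 ± 0.27), while Ptk2b was lower at 7 days (-1.13 ± 0.25). Of 16 selectins and chemoattractant receptors, which act before integrins in leukocyte capture, 12 were higher at 24 h, led by Selp of activated endothelium and platelets (4.60 ± 1.60), and 1 was higher at 7 days (Selplg, the ligand of P-selectin, 1.16 ± 0.36), with Ccr9 lower (-0.94 ± 0.31). Without single libraries the counts of higher genes at 7 days went from 5 to 3 for activators and adaptors (sham replicate 2 or stroke replicate 2), from 3 to 1 for signalling genes (sham replicate 2 or stroke replicate 1) and to between 0 and 5 for selectins and receptors. That last count was 4 without sham replicate 3, 5 without stroke replicate 3 and 0 without any of the other 4 libraries, and the count of lower genes was 0 without sham replicate 1 or 2 or stroke replicate 1 or 3.

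Markers of leukocytes were counted in the same comparisons, beside 10.0% of all genes higher and 8.23% lower at 24 h and 3.27% higher and 9.95% lower at 7 days. Of 6 genes shared by leukocytes, 5 were higher at 24 h, led by Cd52 (2.21 ± 0.34, log2, SE), and 3 at 7 days, led by Ptprc, the gene of CD45 (1.20 ± 0.33). Their summed level was 5594 to 6737 in ipsilateral stroke against 2934 to 3782 normalized counts in sham libraries at 24 h, and 4481 to 5948 against 3713 to 4237 at 7 days. Neutrophil markers (9 of 10 tested higher at 24 h, 3 at 7 days) summed to 2996 to 6608 against 244 to 1225 at 24 h and to 848 to 5094 against 215 to 1794 at 7 days, so their ranges overlapped at 7 days. Ly6g, which defines neutrophils, was at 9 to 21 against 0 to 3 at 24 h and at 1 to 19 against 0 to 6 at 7 days, and Il1r2 had the largest difference at both times (3.72 ± 1.0 and 2.93 ± 1.0). Monocyte and macrophage markers (7 of 12 higher at 24 h, 2 higher and 2 lower at 7 days) were led by Chil3 (4.42 ± 0.66 and 3.41 ± 0.66), with Mrc1 of perivascular macrophages lower at 7 days (-1.23 ± 0.26), and their sums were 10176 to 19310 against 5913 to 9887 at 24 h and 6645 to 11527 against 6280 to 9089 at 7 days. Microglia markers, whose cells also carry Itgam, were not called higher at 24 h (0 of 9) but lower in 3, led by Siglech (-1.25 ± 0.40). Their sums overlapped, at 3006 to 4563 against 3326 to 5963 at 24 h and 4317 to 4514 against 3293 to 4709 at 7 days. The part of any of these cells in the integrin values was not tested.

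Single libraries changed these marker counts. The neutrophil count at 24 h was 4 without sham replicate 1, stroke replicate 1 or stroke replicate 2. At 7 days it was between 0 and 9, and it lay at 9 without sham replicate 3, at 6 without stroke replicate 3 and at 0 or 1 without any of the other 4 libraries. The count of leukocyte genes at 7 days was 1 without replicate 1 or 2 of either surgery. Counts of higher monocyte and macrophage markers at 7 days lay between 1 and 4, and the microglia count at 24 h was 0 without sham replicate 2 or stroke replicate 2 and 1 without stroke replicate 1. Of the 2 lower monocyte and macrophage markers at 7 days, 1 was left without sham replicate 1 or stroke replicate 3.

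Markers of the other cell types were summed and counted in the same way. Of all genes, 10.0% were called higher and 8.23% lower at 24 h, and 3.27% higher and 9.95% lower at 7 days. These lists are short, so a count in them rests on single genes. T cell markers summed to 194 to 201 against 82 to 135 normalized counts at 24 h. At 7 days they summed to 127 to 203 against 127 to 162. Of 4 tested, 2 were higher at 24 h (largest Cd247, 1.74 ± 0.40) and Cd4 was lower at 7 days (-0.87 ± 0.26). Cd4 was a large part of the sham sum at 7 days, at 62 to 71, and was at 24 to 52 in stroke libraries. Cd247 was at 19 to 23 in sham and 28 to 44 in stroke libraries then. B cell markers had 2 of 6 higher at 24 h (largest Cd79b, 1.95 ± 0.50) and none at 7 days, with sums of 94 to 127 against 36 to 58 and of 98 to 140 against 51 to 92. Of 4 tested NK cell markers none was called, with sums of 32 to 75 against 17 to 36 and of 126 to 350 against 55 to 152. Dendritic cell markers, of interest for Itgax, had 2 of 5 higher at 24 h (largest Ccr7, 2.33 ± 0.62) and 2 lower at 7 days (largest Cd209a, -3.05 ± 0.26), and their sums overlapped at 24 h (1166 to 1332 against 1259 to 1562) and 7 days (950 to 1532 against 955 to 1234). Pf4 of the platelet list was higher at 24 h (1.03 ± 0.28) and lower at 7 days (-1.66 ± 0.28). Platelet markers summed to 476 to 601 against 136 to 432 and to 157 to 186 against 293 to 580. Itga2b of the platelet fibrinogen receptor went the other way at 7 days, at 98 to 122 against 35 to 83. The part of platelets in these values was not tested.

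Markers of vessel and brain cells were called lower or not called, and 8.23% of all genes were called lower at 24 h and 9.95% at 7 days, near which the smaller of these counts lie. Endothelial markers had 2 of 10 lower at 24 h (largest Abcb1a, -0.87 ± 0.16) and none called at 7 days, with sums of 333489 to 387320 against 365861 to 477257 and of 401287 to 547062 against 339832 to 497982 normalized counts. Pericyte markers had 2 of 6 lower at 24 h (largest Rgs5, -0.74 ± 0.16) and 1 at 7 days (Vtn, -1.0 ± 0.20), with sums of 55062 to 77587 against 85997 to 109542 and of 70015 to 72603 against 100378 to 126425. Astrocyte markers had 3 of 6 lower at 24 h (largest Aqp4, -1.44 ± 0.49) and 2 at 7 days (largest Slc1a2, -1.74 ± 0.31), with sums of 9978 to 15398 against 14706 to 22424 and of 8734 to 11651 against 13404 to 28990. Neuron markers had 4 of 7 lower at 24 h (largest Nefl, -2.00 ± 0.47) and 7 at 7 days (largest Syt1, -3.80 ± 0.39). Choroid plexus markers were not called at 24 h, and 3 of 6 were lower at 7 days (largest Ttr, -3.93 ± 1.06), with sums of 7975 to 20665 against 5136 to 74259 and of 702 to 3236 against 15934 to 29059.

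Relative to the mean log2 value of the 6 genes shared by leukocytes, the chains again differed. Itgb2 lay at -1.17 to -0.88 in the means of the 6 control groups and at -0.13 ± 0.14 (SD, n = 3) and -0.07 ± 0.15 in ipsilateral stroke vessels at 24 h and 7 days. Itgam lay at -3.26 to -2.92 in control groups, at -1.89 ± 0.03 at 24 h and at -2.90 ± 0.13 at 7 days. Itgax lay at -3.41 ± 0.17 at 24 h and -2.76 ± 0.17 at 7 days, and at -4.60 to -3.68 in control groups. Itgal lay at -1.45 ± 0.29 at 24 h and -0.90 ± 0.35 at 7 days, and at -3.05 to -1.76 in control groups. Itgb7 lay at -2.64 ± 0.14 at 24 h and -2.74 ± 0.16 at 7 days, and at -3.38 to -2.80 in control groups. Sham ipsilateral vessels were at -3.09 ± 0.25 at 24 h and at -2.80 ± 0.26 at 7 days, the highest control group. Itga4 lay lower in stroke (-0.51 ± 0.20 and -0.58 ± 0.24) than in control groups (0.03 to 0.65). The leukocyte genes are expressed in part outside blood cells, and Laptm5 was not called at either time (0.28 ± 0.12 and 0.34 ± 0.12). These differences describe libraries that the choice of the genes had used and were not tested.

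**Figure D5:**
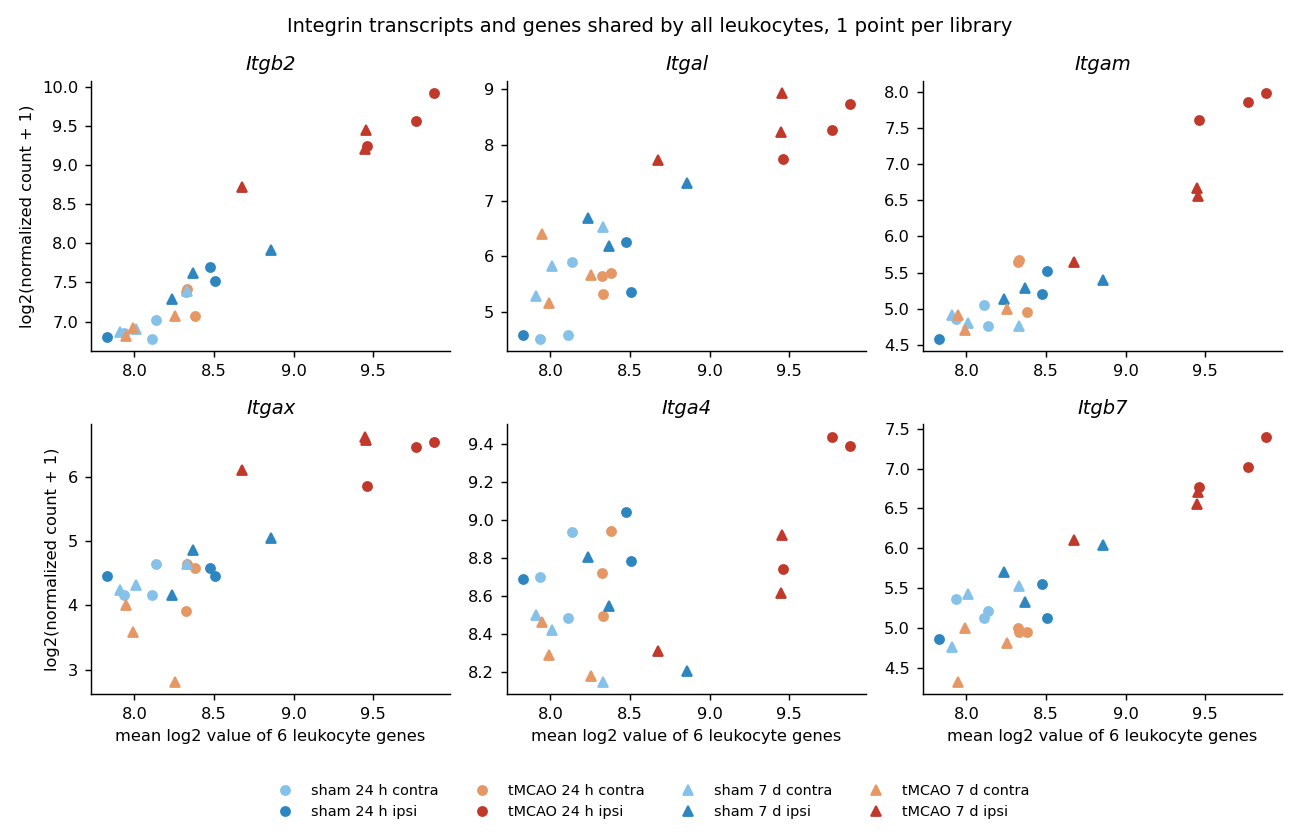
Log2(normalized count + 1) of each leukocyte integrin (vertical axis) against the mean log2 value of 6 genes shared by leukocytes (horizontal axis), 1 point per library, circles for 24 h and triangles for 7 days. The ipsilateral tMCAO libraries (dark red) lie above all others for Itgb2, Itgal, Itgax and Itgb7, while 1 library of 7 days is within the control range of Itgam and within the range of sham libraries on the horizontal axis, and Itga4 overlaps.

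By the correlation of log2 values over the 24 libraries, which fall into ipsilateral stroke and all others so that r mostly measures that separation, the genes most like each integrin were as follows. Itgb2 was nearest to Rac2 (r = 0.975), Cd52 (0.975) and Ptprc (0.970). Itgal was nearest to Adgre4 (0.966), Myo1g (0.955) and Spn, the gene of CD43 (0.943). Itgam was nearest to Gpr35 (0.973), Ltb4r1, the leukotriene B4 receptor gene (0.955), and Itga5 (0.954). Itgax was nearest to Ptpn6 (0.928), Ckap2 (0.925) and Dock2 (0.924). Itga4 was nearest to Fblim1 (0.871), Nfam1 (0.833) and Pik3cg (0.832), and Itgb7 to Plbd1 (0.953), Rac2 (0.941) and Ptprc (0.927).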

How the data were processed

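Microvessel RNA was sequenced by the study from 24 libraries after stranded mRNA preparation. The deposited values are a score: the authors aligned reads to mm10 (GRCm38), excluded those matching several genes, scaled gene counts to library size with DESeq2 and rounded the result to whole numbers. The submitters' processing notes name STAR 2.5.2b, featureCounts 1.5.1 and DESeq2 1.6.2, and the study's methods name other releases of STAR and DESeq2. The annotation release is not given in the sources used here. Since the values are scaled and rounded, they are not reads and no count test was run. Size factors estimated from the spacing of the values lay between 0.805 and 1.238 in the 22 libraries where the estimate passed its minimum, or about 13691467 to 20033951 reads. Totals of normalized counts were 15924780 to 18787932. No batch is given by the labels.

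Log2(value + 1) of the 15982 genes with a mean above 5 was fitted with limma 3.58.1 in R 4.3.3 (trend, all 8 groups), with p-values adjusted by Benjamini-Hochberg over all these genes, and a gene was called at an adjusted p under 0.05 and a log2 fold change beyond 0.585. The filter and the thresholds are those of the study. The code was tested on simulated data. Tables and plots were made in Python 3.11.15. Fold changes are on the log2(value + 1) scale and understate those of low genes. Levels per kb used exon lengths of GENCODE M21. The 6 genes and the lists of other genes were chosen with earlier results of these data known. Named are the 6 genes, the other integrins and the ligands, in every other list the called gene with the largest increase and decrease at each time, and for each integrin the 3 genes with the highest correlation. A result that this rule would name is not reported here. Itgb1, Ptprc, Laptm5, Cldn5, Ly6g and Cd3e were named in addition. Libraries of the hemispheres with the same number were checked for pairing: their deviations from the group means correlated at 0.145 to 0.467 in the 6 sham pairs, so these numbers were taken to pair the hemispheres, although no label says so, and a block for the pairs changed no call of the 6 genes in sham comparisons. Alternatives were another pseudocount, other filters, median centring, blocks, fits of the compared groups alone and fits without each library.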

Additional observations from a re-analysis of the deposited data

Results flagged for a closer look

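The interaction term of the fit compared the change with stroke (tMCAO minus sham, ipsilateral) at 7 days with that at 24 h. It was called lower for 2 genes of the lists of other integrins and of ligands, where 5.68% of all genes were called lower. Itgam was called as well, and its value is given above. The lists were chosen with earlier results of these data known, so the values describe the 2 genes and are no test. Itga5, the fibronectin receptor chain, had a value of -0.7199 on the log2 scale, from effects of 1.49 ± 0.15 (SE) at 24 h and 0.77 ± 0.15 at 7 days. Cdh1, E-cadherin, which is a ligand of alpha E beta 7, had a value of -1.9743, from 0.92 ± 0.41 at 24 h and -1.06 ± 0.41 at 7 days, neither of them called. Cdh1 lay at only 2 to 13 normalized counts in the ipsilateral libraries.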

How the results depend on the processing

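Under the settings other than leaving out a library, the count of leukocyte integrins called kept its value within 1.5 times in 96 of 98 comparisons with the reported fits. It was 3 in place of 5 for tMCAO against sham ipsilateral at 7 days when only the compared groups were fitted (Itgam and Itgb7 lost), and 2 in place of 1 for the difference of the stroke effects between times with a filter of a mean above 20 (Itgb7 gained). Median centring turned the difference of the Itgax effects between times from -0.04 to 0.0594. Without single libraries, the count of leukocyte integrins called ranged from 2 to 5 for tMCAO against sham ipsilateral at 7 days, from 1 to 2 for ipsilateral stroke at 7 days against 24 h, and from 1 to 2 for the difference of the stroke effects. Values near 0 changed sign: Itga4 in tMCAO against sham at 7 days ranged from -0.061 to 0.2468, Itgal and Itgax in ipsilateral stroke at 7 days against 24 h from -0.2761 to 0.3258 and from -0.0715 to 0.3086, and Itgax in the difference of the effects from -0.305 to 0.1323. The cause was not tested, and fits without a library have fewer samples. With only the compared groups fitted, counts at 7 days fell to 1 for shared leukocyte genes and neutrophil markers (3 each in the reported fit), and to 1 for other integrins and ligands called higher (2 each), and at 24 h to 1 for microglia markers called lower (3). A mean above 20 also left 1 neutrophil marker at 7 days. The shares of alpha chains with the longest transcript in place of the exon union moved by less than 1 SD in 24 of 24 values.

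With the mouse pool as a replicate block, or the replicate number, 4 in place of 5 leukocyte integrins were called for tMCAO against sham ipsilateral at 7 days (Itgb7 lost, adjusted over all genes with limma) and the other counts of leukocyte integrins did not change. The same-numbered hemispheres correlated above 0.1 in 9 of 12 pairs, at 0.0593 to 0.467, and below 0.1 in 3 tMCAO pairs, so the numbers were not taken to pair the tMCAO hemispheres. Whether these came from the same mice was not tested. Low values limit precision, such as the 6 to 15 normalized counts of Itgax in contralateral tMCAO libraries of 7 days. The contrast averaged over both sham times was added after seeing the data.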
